A study of Homo sapiens with 8 samples.

Results

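The genes described here are 10 growth-arrest genes of 3 families, namely BTG1, BTG2, BTG3, TOB1 and TOB2 (the BTG/TOB family), GADD45A, GADD45B and GADD45G (the GADD45 family), and the polo-like kinase genes PLK2 and PLK3. They were chosen by name, and all 10 were found among the 25369 genes listed and among the 15879 genes with enough reads to be tested. Poly(A) RNA came from CHP212, a human neuroblastoma cell line, in 4 groups of 2 independent biological replicates. The groups were FAM193A knockout (KO) cells given Nutlin-3a, KO cells given DMSO, unmodified (WT) cells given Nutlin-3a, and WT cells given DMSO. Nutlin-3a was used at 10 uM and DMSO at 0.2%, each for 12 h. Nutlin-3a blocks the pocket of MDM2 that holds p53, so p53 accumulates without DNA damage. The labels name 1 KO population and do not say whether it is a clone, so loss of FAM193A and any other property of that population cannot be told apart.

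BTG and TOB proteins are antiproliferative adaptors. They share an N-terminal domain that binds the CNOT7 and CNOT8 deadenylases of the CCR4-NOT complex and so speed the removal of poly(A) tails from mRNA. GADD45 proteins are small, acidic stress proteins that bind PCNA, the CDK1 and cyclin B1 pair and the kinase MAP3K4, and they are linked to arrest before mitosis. PLK2 and PLK3 are stress-inducible relatives of the mitotic kinase PLK1. BTG2, GADD45A, PLK2 and PLK3 are known p53 targets, and several of the 10 genes are also induced by growth factors or by stress without p53.

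Libraries held 28390405 to 38010075 reads. FAM193A itself was still read in KO cells, at 33.5 ± 1.84 CPM in KO DMSO cells against 42.0 ± 2.95 CPM in WT DMSO cells (SD, n = 2 each; log2 fold change -0.33, SE 0.08, adjusted p = 0.000999 by edgeR), and the labels do not describe the edit. CPM is the read count scaled by TMM to a common library total. Of 10 neuroblastoma and sympathoadrenal markers, 9 exceeded 1 CPM in KO and 7 in WT groups, and 11 markers of other lineages summed to at most 6.40 CPM in any library, with the T cell gene CD3E at 0 reads in all. Replicate 2 of KO Nutlin-3a held 10 genes with at least 30 reads that had at most 5 reads in the other replicate, replicate 1 of WT Nutlin-3a held 33 and replicate 2 of WT DMSO held 11, against 0 to 2 in the other 5 libraries. These are called the 3 uneven libraries here. In all libraries the 10 genes had at least 38 reads, the lowest being GADD45G in WT DMSO cells. Because these are bulk libraries, a change in the share of cells that express a gene and a change of RNA per cell cannot be told apart.

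The promoters of the 10 genes were searched because p53 binds a pair of decamers close to many of its targets. RefSeq windows (GRCh38.p14) from 250 bases before to 50 after a start were on hand for 9 of the 10 genes, without GADD45A, and 1 window, that of PLK2, held an exact match to the p53 consensus decamer. Such a match was present in 6.63% of 35116 promoters. A TATAAA letter run, searched on both strands, was found in BTG1 and GADD45B (11.5% of all promoters), and CCAAT was found in BTG1, BTG2, GADD45B, GADD45G and TOB1 (34.6% of all promoters). TGACG was found in BTG1, BTG2, PLK2 and TOB1 (24.6% of all promoters) and a CArG box in 0 of the members' windows (1.29% of all promoters). The closest decamer pair, with 0 to 13 bases between its members, had 3 mismatches of 20 positions in PLK2, TOB2 and GADD45B. As close a pair was present in 39.1% of all promoters. In BTG2 it had 4 mismatches, as close as in 84.2% of all promoters. Stretches are shown for PLK2 and BTG2, which rose with Nutlin-3a in both genotypes. Those of TOB2 and GADD45B, which changed by at most 0.26 on the log2 scale, are set beside them. The 4 were picked by these responses, and a link between letters and response was not tested. Capitals mark the decamer pair, and the strand is that of the gene.
PLK2 (chr5:58460156-58460258, minus strand): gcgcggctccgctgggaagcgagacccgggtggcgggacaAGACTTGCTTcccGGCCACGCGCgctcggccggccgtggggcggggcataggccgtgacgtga
BTG2 (chr1:203305465-203305543, plus strand): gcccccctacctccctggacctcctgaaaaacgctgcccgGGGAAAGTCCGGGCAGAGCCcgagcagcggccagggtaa
TOB2 (chr22:41446871-41446971, minus strand): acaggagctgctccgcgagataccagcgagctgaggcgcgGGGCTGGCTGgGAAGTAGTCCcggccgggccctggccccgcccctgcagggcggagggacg
GADD45B (chr19:2475975-2476079, plus strand): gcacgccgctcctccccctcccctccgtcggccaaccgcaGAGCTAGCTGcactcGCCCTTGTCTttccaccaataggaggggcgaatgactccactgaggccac

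Comparing Nutlin-3a with DMSO asks how each gene answers p53 activation. In KO cells 6 of the 10 genes rose and 0 fell, where 18.1% of all genes tested rose and 20.6% fell. The risers were BTG2, BTG3, TOB1, GADD45A, PLK2 and PLK3. In either direction 38.7% of all genes were called in KO cells and 58.6% in WT cells. In WT cells all 10 rose, where 29.4% of all genes tested rose and 29.2% fell. The median log2 fold change of the 10 genes was 0.60 in KO cells and 1.49 in WT cells, while that of all genes was -0.01 in KO and 0.02 in WT cells. A call means an adjusted p under 0.05 by the quasi-likelihood test of edgeR, adjusted over all 15879 genes. The libraries of the 2 treatments did not overlap for 7 of the 10 genes in KO cells (71.5% of all genes) and for all 10 in WT cells (76.2% of all genes).

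**Figure D1:**
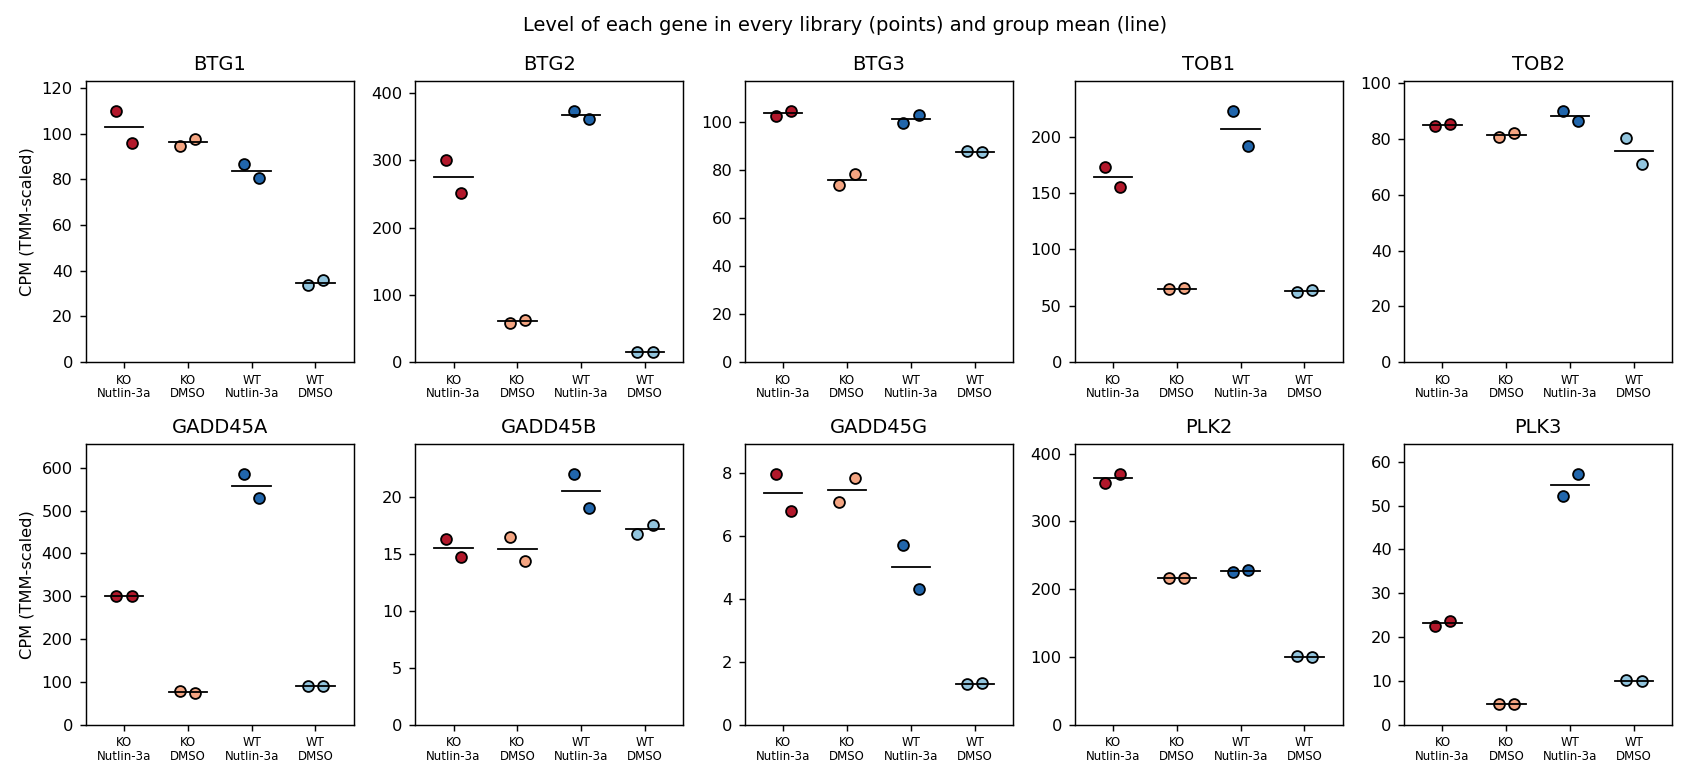
CPM (TMM-scaled, linear axes from 0) of each of the 10 genes in every library, with points for the 2 replicates and a line for their mean, in KO Nutlin-3a, KO DMSO, WT Nutlin-3a and WT DMSO cells. BTG1 and PLK2 stood in KO DMSO cells near their WT Nutlin-3a levels, and GADD45G stood above its own. The means of BTG2, TOB1, TOB2, GADD45A, GADD45B and PLK3 were highest in WT Nutlin-3a cells.

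Among the BTG/TOB genes, BTG2 had the largest response. BTG2 encodes an adaptor also known as an immediate early gene product. Its level was 300.2 and 251 CPM in KO Nutlin-3a cells against 57.7 and 62.8 CPM in KO DMSO cells, a 4.58-fold rise (95% interval 4.09 to 5.13, adjusted p = 5.6e-11 by edgeR). WT cells held 373 and 361 CPM with Nutlin-3a against 15.4 and 14.9 CPM with DMSO, a 24.2-fold rise (21.2 to 27.7, adjusted p = 5.5e-14 by edgeR). The groups were far apart in both genotypes, and in WT cells BTG2 ranked 150 from the top of 15879 genes by fold change.

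TOB1, a regulator that also binds SMAD proteins, rose in both genotypes. It had 173 and 155 CPM in KO Nutlin-3a cells against 65.0 and 65.3 CPM in KO DMSO cells (log2 fold change 1.34, SE 0.07, adjusted p = 5.2e-10 by edgeR). In WT cells 223 and 192 CPM were measured with Nutlin-3a against 62.3 and 63.7 CPM with DMSO (1.72, SE 0.07, adjusted p = 1.2e-11 by edgeR). The DMSO levels of both genotypes lay close together. The antisense gene TOB1-AS1 overlaps TOB1 and held 26 to 108 reads per library, against 1814 to 6756 for TOB1, and whether reads were counted by strand is not given in the sources used here.

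BTG1, the closest relative of BTG2 and a gene often lost in lymphoid leukemia, was called in WT cells and not in KO cells. KO cells had 109.8 and 95.8 CPM with Nutlin-3a against 94.5 and 97.7 CPM with DMSO, which overlap (0.10, 95% interval -0.03 to 0.22, adjusted p = 0.221 by edgeR). WT cells had 86.7 and 80.6 CPM with Nutlin-3a against 33.7 and 35.7 CPM with DMSO (1.27, SE 0.07, adjusted p = 1.3e-11 by edgeR). The WT groups did not overlap, and both WT Nutlin-3a levels lay below both KO DMSO levels. The KO change was 0.19 without KO Nutlin-3a replicate 2, and 0.21 without the 3 uneven libraries, of which that replicate is one. Without KO Nutlin-3a replicate 1 the KO change was -0.0042. The size of the KO change, and whether it was called, thus rested on single libraries.

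BTG3 and TOB2 moved little. BTG3, whose product restrains the transcription factor E2F1, had 102 and 104 CPM in KO Nutlin-3a cells against 73.5 and 78.3 CPM in KO DMSO cells (0.45, SE 0.05, adjusted p = 6.4e-07 by edgeR). Its WT levels were 99.3 and 103 CPM with Nutlin-3a against 87.7 and 87.4 CPM with DMSO (0.21, SE 0.05, adjusted p = 0.00149 by edgeR). BTG3 was thus the member whose response was larger in KO than in WT cells. It shares part of its locus with CXADR, which held 717 to 1276 reads per library where BTG3 held 2489 to 3772.

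TOB2 lay between 71.0 and 90.0 CPM in all 8 libraries. Nutlin-3a gave 84.7 and 85.4 CPM in KO cells against 80.7 and 82.1 CPM with DMSO (0.06, 95% interval -0.05 to 0.18, adjusted p = 0.405 by edgeR), and 90.0 and 86.5 CPM in WT cells against 80.4 and 71.0 CPM with DMSO (0.22, SE 0.06, adjusted p = 0.00263 by edgeR). The WT call rested on WT DMSO replicate 2, without which the change was 0.13 (adjusted p = 0.0964 by edgeR).

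In the GADD45 family, GADD45A, the founding member induced by DNA damage, carried most of the reads and rose strongly in both genotypes. It reached 301 and 299.7 CPM in KO Nutlin-3a cells against 79.5 and 75.0 CPM in KO DMSO cells, a 3.89-fold rise (95% interval 3.59 to 4.21, adjusted p = 2.1e-15 by edgeR). WT cells held 586 and 529 CPM with Nutlin-3a against 90.1 and 89.9 CPM with DMSO, a 6.19-fold rise (5.71 to 6.71, adjusted p = 1.6e-17 by edgeR). The KO Nutlin-3a libraries thus stood well above all DMSO libraries and well below both WT Nutlin-3a libraries.

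GADD45G, which in other tissues is tied to cytokine signals and differentiation, was the scarcest of the 10 genes by RPKM in every group but KO DMSO, where PLK3 was. Its reads numbered 294 and 226 in KO Nutlin-3a cells against 254 and 302 in KO DMSO cells, and 173 and 120 in WT Nutlin-3a cells against 39 and 38 in WT DMSO cells. Scaled, that was 7.98 and 6.79 CPM in KO Nutlin-3a cells against 7.10 and 7.83 CPM in KO DMSO cells, with overlap (-0.01, 95% interval -0.31 to 0.28, adjusted p = 0.952 by edgeR). In WT cells 5.70 and 4.31 CPM with Nutlin-3a stood against 1.28 and 1.33 CPM with DMSO (1.94, SE 0.20, adjusted p = 1.4e-07 by edgeR). The gene was therefore induced in WT cells, while KO cells held it above the induced WT level under either treatment.

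GADD45B, better known as a target of NF-kB and TGF-beta signals, changed least in this family. KO cells had 16.3 and 14.7 CPM with Nutlin-3a against 16.5 and 14.4 CPM with DMSO (0.01, 95% interval -0.19 to 0.21, adjusted p = 0.950 by edgeR). WT cells had 22.1 and 19.1 CPM with Nutlin-3a against 16.8 and 17.6 CPM with DMSO (0.26, SE 0.10, adjusted p = 0.0273 by edgeR). That WT call was lost without WT DMSO replicate 1 (0.25), WT DMSO replicate 2 (0.29, adjusted p = 0.0645 by edgeR) or WT Nutlin-3a replicate 1 (0.18, adjusted p = 0.164 by edgeR). It was also lost with the DESeq2 Wald test (adjusted p = 0.0563), limma-trend on log2(RPKM + 0.1) with no low-value filter (adjusted p = 0.0657) and without the 3 uneven libraries (adjusted p = 0.119).

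Both polo-like kinase genes rose in both genotypes. PLK2, a kinase of centriole duplication and synaptic scaling, had 357 and 370.3 CPM in KO Nutlin-3a cells against 217 and 217 CPM in KO DMSO cells, a 1.68-fold rise (95% interval 1.57 to 1.79, adjusted p = 8.6e-11 by edgeR). Its WT levels were 225 and 228 CPM with Nutlin-3a against 100.7 and 99.8 CPM with DMSO, a 2.26-fold rise (2.11 to 2.41, adjusted p = 8.1e-14 by edgeR). PLK2 replicates lay close together, and its WT Nutlin-3a and KO DMSO levels were near each other without overlap.

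PLK3, a kinase that can phosphorylate p53, was much scarcer and rose more. It had 22.6 and 23.7 CPM in KO Nutlin-3a cells against 4.78 and 4.59 CPM in KO DMSO cells, a 4.94-fold rise (95% interval 4.32 to 5.65, adjusted p = 4.4e-13 by edgeR). WT cells had 52.2 and 57.3 CPM with Nutlin-3a against 10.1 and 9.90 CPM with DMSO, a 5.46-fold rise (4.85 to 6.15, adjusted p = 9.3e-15 by edgeR). Within each treatment the KO libraries held less PLK3 than the WT libraries.

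**Figure D2:**
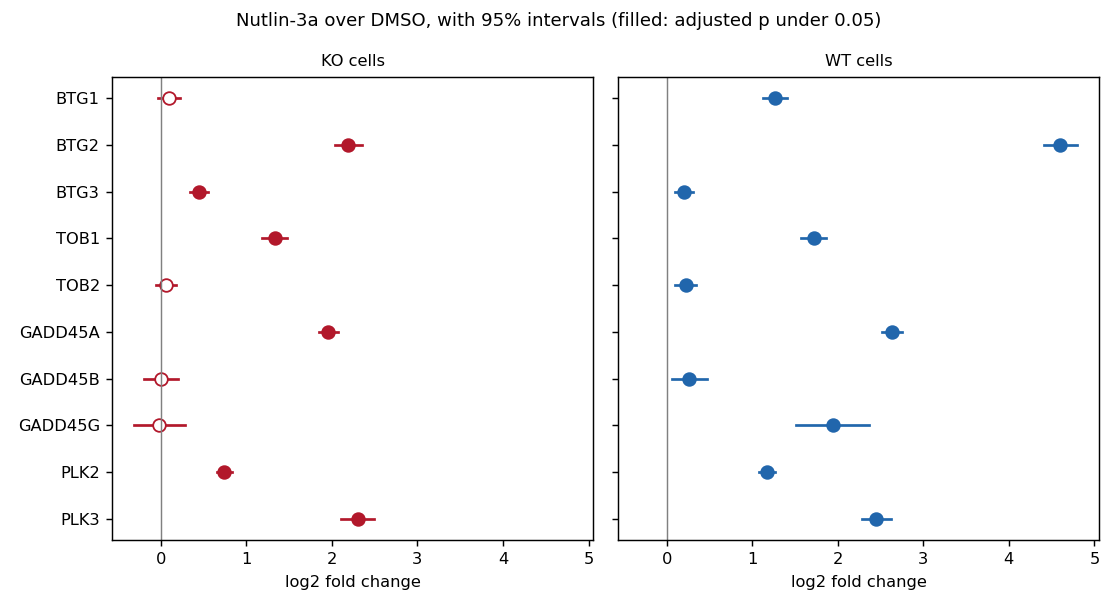
Log2 fold change of Nutlin-3a over DMSO for the 10 genes (rows) in KO cells (left) and WT cells (right), with 95% intervals from the edgeR fit of all 8 libraries and filled points where adjusted p was under 0.05. BTG2, at 4.60, lies farthest to the right in WT cells, and BTG1, TOB2, GADD45B and GADD45G are open in KO cells.

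Setting KO against WT cells asks how the genotypes differ at rest and after p53 activation. Under DMSO, 4 of the 10 genes were higher in KO cells (BTG1, BTG2, GADD45G and PLK2) and 3 were lower (BTG3, GADD45A and PLK3), where 31.4% of all genes tested were higher and 30.1% lower. A count of 7 in 10 is near the 61.5% of all genes called in that comparison, and the genotypes did not overlap for any of the 10 genes (82.4% of all genes). Of the 10 neuroblastoma markers, 6 were higher and 4 lower in KO DMSO cells. TH (tyrosine hydroxylase) had 347 and 419 reads in KO against 14512 and 13684 in WT DMSO cells, and CHGA (chromogranin A) had 1113 and 1236 against 14 and 13. Without TMM scaling, the 10 markers summed to 4236 to 4275 CPM in KO and 4743 to 4796 CPM in WT DMSO cells. MYCN was the largest part of each sum, and the part of the markers in the values below was not tested. GADD45G was 5.72-fold higher (95% interval 4.35 to 7.52, adjusted p = 1.4e-09 by edgeR), BTG2 3.98-fold higher (3.46 to 4.56, adjusted p = 5.3e-10 by edgeR), BTG1 2.77-fold higher (2.51 to 3.05, adjusted p = 1.3e-12 by edgeR) and PLK2 2.16-fold higher (2.03 to 2.31, adjusted p = 1.7e-13 by edgeR). PLK3 in KO cells stood at 0.468 of its WT level (0.402 to 0.544, adjusted p = 3.8e-08 by edgeR). BTG3 differed by -0.21 (SE 0.05, adjusted p = 0.00150 by edgeR) and GADD45A by -0.22 (SE 0.06, adjusted p = 0.00196 by edgeR), and the GADD45A call was lost without KO DMSO replicate 2 (-0.18, adjusted p = 0.0505 by edgeR). TOB1 (0.05, 95% interval -0.10 to 0.20), TOB2 (0.10, -0.01 to 0.22) and GADD45B (-0.15, -0.36 to 0.05) were not called. TOB2 was at 0.20 without WT DMSO replicate 1, so whether it was called rested on that library. With all 8 libraries it passed the test under upper-quartile factors (0.14, adjusted p = 0.0453 by edgeR). It also passed with limma-trend on log2(RPKM + 0.1) (0.17, adjusted p = 0.0378) and on log2(RPKM + 1) (0.16, adjusted p = 0.0397). With upper-quartile factors and these limma-trend settings, the median over all genes was 0.05, 0.07 and 0.05, against 0.01 in the main fit.

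Under Nutlin-3a, 3 genes were higher in KO cells (BTG1, GADD45G and PLK2) and 5 were lower (BTG2, TOB1, GADD45A, GADD45B and PLK3). Over all genes tested 32.7% were higher, 30.4% lower and 63.1% called. The genotypes did not overlap for 9 of the 10 genes, all but BTG3 (79.1% of all genes). Without TMM scaling, the 10 neuroblastoma markers summed to 3744 to 3938 CPM in KO and 3181 to 3306 CPM in WT Nutlin-3a cells. Of these markers 6 were higher and 3 lower in KO cells, and their part was not tested. PLK3 stood at 0.423 of its WT level (95% interval 0.381 to 0.470, adjusted p = 3.0e-11 by edgeR) and GADD45A at 0.539 (0.500 to 0.580, adjusted p = 2.4e-11 by edgeR). PLK2 was 1.61-fold higher (1.51 to 1.71, adjusted p = 1.1e-10 by edgeR). BTG2, which was higher in KO cells under DMSO, was lower under Nutlin-3a by -0.41 (SE 0.07, adjusted p = 0.000170 by edgeR). TOB1 differed by -0.33 (SE 0.07, adjusted p = 0.000389 by edgeR), BTG1 by 0.30 (SE 0.06, adjusted p = 0.000399 by edgeR) and BTG3 and TOB2 by 0.03 (95% interval -0.07 to 0.14) and -0.05 (-0.17 to 0.06). GADD45G, at 0.56 (SE 0.15, adjusted p = 0.00335 by edgeR), lost its call without KO Nutlin-3a replicate 1 (0.44, adjusted p = 0.0564 by edgeR). GADD45B, at -0.41 (SE 0.10, adjusted p = 0.00136 by edgeR), lost it without the 3 uneven libraries (-0.24, adjusted p = 0.0673 by edgeR).

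The difference of the KO and WT responses was tested as a term of its own. The response was smaller in KO cells for 6 genes and larger for 1, where KO minus WT was called below 0 for 13.4% and above 0 for 14.2% of all genes tested, 27.5% in all. BTG2 had the largest difference, -2.40 on the log2 scale (SE 0.12, adjusted p = 1.6e-08 by edgeR), and ranked 167 from the lowest of 15879 genes. GADD45G (-1.96, SE 0.25, adjusted p = 1.1e-05 by edgeR) and BTG1 (-1.17, SE 0.09, adjusted p = 5.0e-08 by edgeR) followed. GADD45A (-0.67, SE 0.07, adjusted p = 2.7e-06 by edgeR), PLK2 (-0.43, SE 0.06, adjusted p = 4.8e-05 by edgeR) and TOB1 (-0.38, SE 0.10, adjusted p = 0.00830 by edgeR) had smaller differences.

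The tests above share libraries, so their values are only set side by side. KO minus WT was -0.89 under Nutlin-3a and -0.22 under DMSO for GADD45A, and 0.30 under Nutlin-3a and 1.47 under DMSO for BTG1. PLK3 was lower in KO cells under both treatments, and its responses differed by -0.14 (95% interval -0.41 to 0.12, adjusted p = 0.440 by edgeR; -0.31, adjusted p = 0.0309, with limma-trend on log2(RPKM + 1)). TOB2 (-0.16, -0.33 to 0.01, adjusted p = 0.155 by edgeR) and GADD45B (-0.25, -0.54 to 0.04, adjusted p = 0.192 by edgeR) were not called either, although TOB2 passed without WT DMSO replicate 1 (-0.26, adjusted p = 0.0375 by edgeR) and GADD45B without WT Nutlin-3a replicate 2 (-0.35, adjusted p = 0.0456 by edgeR). BTG3, with a larger response in KO cells (0.24, SE 0.07, adjusted p = 0.0151 by edgeR), lost its call in 4 edgeR fits. The values were 0.22 without the second KO Nutlin-3a library (adjusted p = 0.0681 by edgeR), 0.19 without the first KO DMSO library (adjusted p = 0.114 by edgeR), and 0.23 and 0.24 without the first and the second WT DMSO library (adjusted p = 0.0630 and 0.0556 by edgeR).

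**Figure D3:**
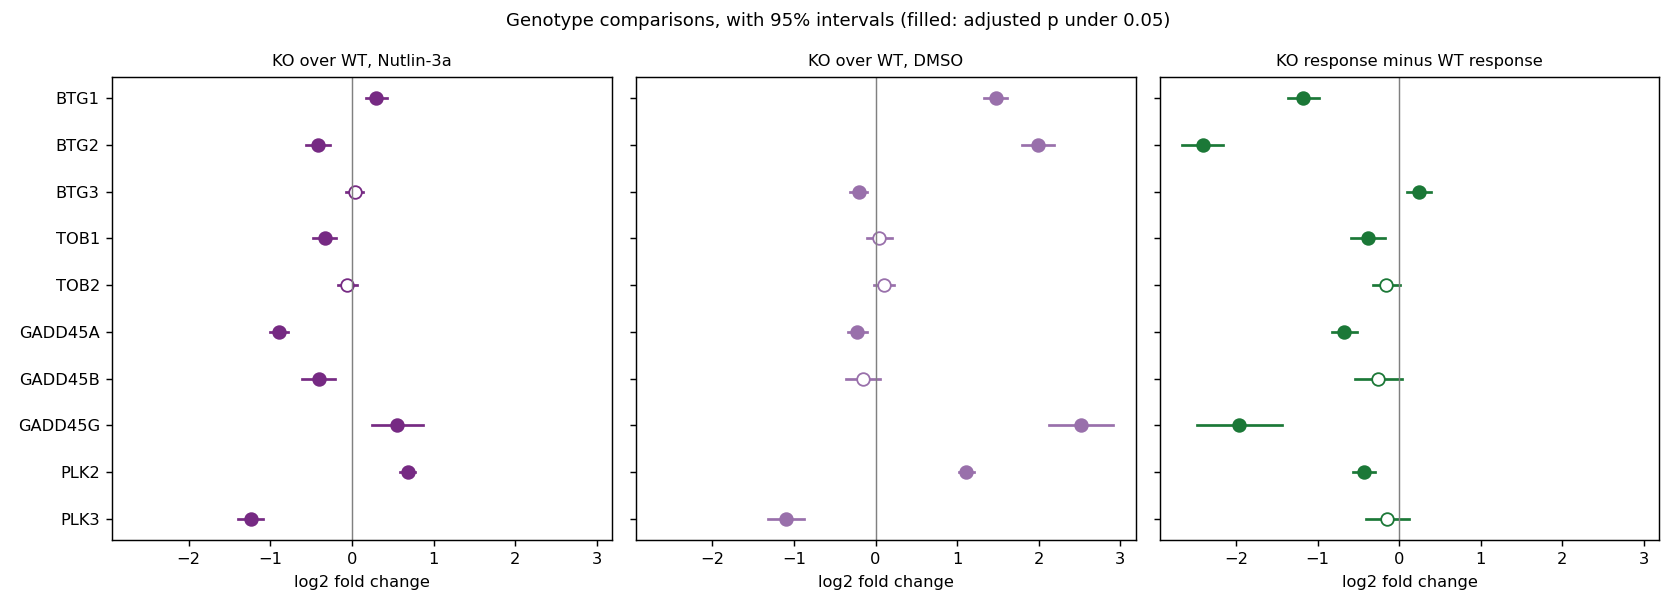
Log2 fold change of KO over WT cells under Nutlin-3a (left) and under DMSO (middle), and the KO response minus the WT response (right), for the 10 genes with 95% intervals and filled points where adjusted p was under 0.05 by edgeR. BTG2 lies at -0.41 under Nutlin-3a and at 1.99 under DMSO, and PLK3 lies below 0 in both.

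Levels of different genes were compared by the deposited RPKM, which divides reads by gene length and library total. The BTG/TOB genes summed to 283 ± 21.2 RPKM in KO Nutlin-3a cells against 136 ± 4.12 RPKM in KO DMSO cells, and to 310.5 ± 9.41 RPKM in WT Nutlin-3a cells against 106 ± 1.35 RPKM in WT DMSO cells (SD, n = 2 each). BTG3 was the main BTG/TOB transcript under DMSO, with 35.5 ± 0.469% of the family sum in KO and 50.1 ± 0.353% in WT cells. Under Nutlin-3a BTG2 took the first place, with 37.3 ± 2.08% in KO against 16.6 ± 0.477% in KO DMSO cells, and 42.6 ± 0.584% in WT against 5.10 ± 0.0774% in WT DMSO cells. BTG2 thus moved to the front of its family in both genotypes.

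GADD45A held 92.3 ± 0.618% of the GADD45 sum in KO Nutlin-3a cells against 75.4 ± 0.146% in KO DMSO cells, and 95.4 ± 0.229% in WT Nutlin-3a cells against 82.6 ± 0.490% in WT DMSO cells (SD, n = 2 each). GADD45G made up 9.47 ± 1.03% in KO DMSO against 1.56 ± 0.0377% in WT DMSO cells, and GADD45B the rest. Of the 2 kinase genes, PLK2 was the more abundant in all 4 groups, with 133 ± 2.58 RPKM in KO Nutlin-3a cells against 77.6 ± 0.0843 RPKM in KO DMSO cells and 77.7 ± 1.25 RPKM in WT Nutlin-3a cells against 34.3 ± 0.325 RPKM in WT DMSO cells. PLK3 reached at most 22.6 ± 1.64 RPKM, in WT Nutlin-3a cells. Ordered by RPKM, GADD45A led the 10 genes in KO Nutlin-3a, WT Nutlin-3a and WT DMSO cells and PLK2 led in KO DMSO cells, and the order of the next places changed with treatment.

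**Figure D4:**
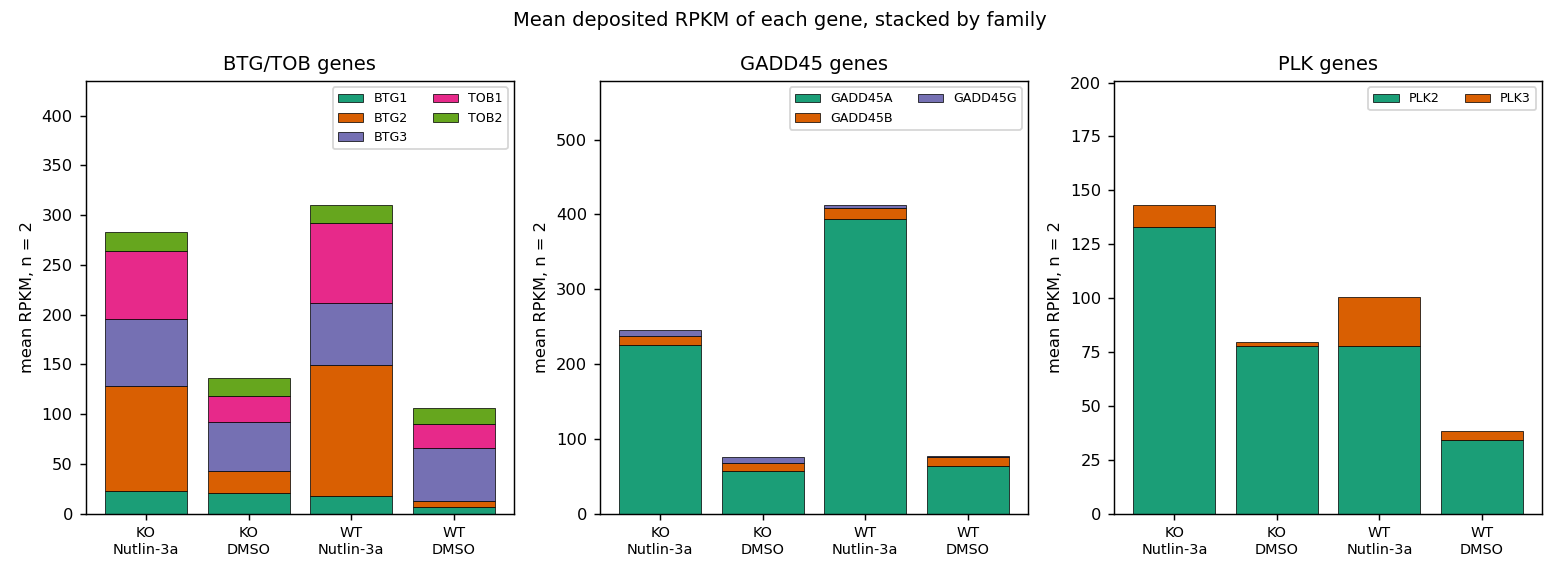
Mean deposited RPKM (n = 2) of each gene, stacked within the BTG/TOB, GADD45 and PLK families, in KO Nutlin-3a, KO DMSO, WT Nutlin-3a and WT DMSO cells. BTG2 fills 37.3% of the BTG/TOB bar in KO and 42.6% in WT Nutlin-3a cells, and GADD45A fills over 75% of every GADD45 bar.

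Relatives outside the 10 genes went the other way. PLK1, the kinase of mitotic entry, fell by 0.65 in KO (SE 0.06) and by 1.52 in WT cells (SE 0.06), and PLK4, the kinase of centriole duplication, fell by 1.26 in KO (SE 0.07) and by 1.92 in WT cells (SE 0.08) on the log2 scale. The differences of their responses, 0.87 for PLK1 (SE 0.08, adjusted p = 2.4e-07 by edgeR) and 0.66 for PLK4 (SE 0.10, adjusted p = 0.000111 by edgeR), were called. BTG4, a BTG gene known from oocytes, had 1 read and PLK5 11 reads over all 8 libraries, and neither was tested.

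Genes for the partners of these proteins showed no shared rise. Over all genes tested 18.1% rose and 20.6% fell in KO cells, and 29.4% rose and 29.2% fell in WT cells. Of 16 genes for CCR4-NOT and PAN deadenylases, poly(A)-binding proteins and PRMT1, 2 rose and 6 fell in KO cells (median -0.09) and 4 rose and 7 fell in WT cells (median -0.04), beside medians over all genes of -0.01 in KO and 0.02 in WT cells. RQCD1, the older symbol of the CCR4-NOT subunit gene CNOT9, fell by 0.45 in KO (SE 0.05) and by 0.98 in WT cells (SE 0.05), and the deadenylase gene CNOT6 rose by 0.21 in KO and by 0.61 in WT cells (SE 0.05 each). CNOT7, which BTG and TOB proteins bind, fell by 0.22 in KO and by 0.40 in WT cells (SE 0.05 each). PRMT1, an arginine methyltransferase that binds BTG1 and BTG2, fell by 0.23 in KO and by 0.36 in WT cells (SE 0.04 each), and CNOT10 fell by 0.25 in KO (SE 0.05) and by 0.59 in WT cells (SE 0.06). The KO minus WT difference of responses was called for 4 of the 16 genes (27.5% of all genes), RQCD1 (0.52), CNOT10 (0.33), CNOT7 (0.19) and CNOT6 (-0.40). Of 10 genes for proteins bound by GADD45 proteins, 0 rose and 6 fell in KO cells (median -0.15) and 1 rose and 6 fell in WT cells (median -0.19). CCNB1 (cyclin B1) fell by 0.69 in KO (SE 0.05) and by 1.27 in WT cells (SE 0.05), and CDK1 fell by 0.47 in KO (SE 0.06) and by 0.85 in WT cells (SE 0.06). GADD45GIP1, whose product binds GADD45 proteins, fell by 0.37 in KO and by 0.52 in WT cells (SE 0.06 each). The difference of responses was called for 3 of the 10 (27.5% of all genes), CCNB1 (0.57), CDK1 (0.38) and ING1 (0.35), each of which fell less in KO cells. Of 8 genes for described PLK2 or PLK3 substrates, 1 rose and 4 fell in KO cells (median -0.36) and 3 rose and 5 fell in WT cells (median -0.57). CDC25A, the phosphatase that activates CDK2, fell by 1.67 in KO (SE 0.07) and by 2.96 in WT cells (SE 0.08). CENPJ, a centriole gene, fell by 0.64 in KO and by 0.77 in WT cells, and the checkpoint kinase gene CHEK2 fell by 0.56 in KO and by 0.85 in WT cells. The difference of responses was called for 3 of the 8 (27.5% of all genes), CDC25A (1.29), CHEK2 (0.29) and HIF1A (-0.29).

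Other arrest genes among p53 targets were counted beside them. Of 10 such genes 7 rose and 1 fell in KO cells (median 1.67) and 9 rose and 1 fell in WT cells (median 1.79). Over all genes tested 18.1% rose and 20.6% fell in KO cells, and 29.4% rose and 29.2% fell in WT cells. The difference of responses was called below 0 for 13.4% and above 0 for 14.2% of all genes. CDKN1A (p21) changed by 5.12 in KO (SE 0.06) and 5.39 in WT cells (SE 0.06), ZMAT3 by 2.22 (SE 0.05) and 2.60 (SE 0.05), and the phosphatase gene PPM1D by 1.58 (SE 0.05) and 1.93 (SE 0.05) in the same order, all called. KO minus WT of the responses was called below 0 for 6 of them, all of which rose less in KO cells, among them PPM1D (-0.35, SE 0.06, adjusted p = 0.000453 by edgeR) and SESN1 (-0.87, SE 0.14, adjusted p = 0.000405 by edgeR), and above 0 for GTSE1 (0.61, SE 0.09, adjusted p = 4.4e-05 by edgeR). GTSE1, a G2 and S phase gene, was the one that fell, by 0.77 in KO (SE 0.06) and by 1.38 in WT cells (SE 0.06), so its fall was the smaller in KO cells. Since BTG2, PLK2 and PLK3 are also known as immediate early genes, 16 genes of that class were counted, of which 11 rose and 1 fell in KO cells (median 0.52) and 12 rose and 0 fell in WT cells (median 0.61). ATF3 rose by 1.35 in KO and 1.89 in WT cells, and IER3 by 0.66 in KO and 1.17 in WT cells (difference -0.51). FOSL1 rose by 2.25 in KO and by 1.13 in WT cells (difference 1.13). The difference of responses was called below 0 for 5 of the 16 (13.4% of all genes) and above 0 for 1, FOSL1 (14.2% of all genes). EGR2 had 71 and 44 reads in KO Nutlin-3a against 15 and 15 in KO DMSO cells, and 130 and 96 in WT Nutlin-3a against 2 and 2 in WT DMSO cells, where a fitted fold rests on almost no reads.

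The genes with the most similar pattern over the 8 libraries were sought by the root mean square difference of log2 CPM, each gene centred on its own mean. For BTG1 they were PNRC1 (0.07) and DCLK1 (0.11), for BTG2 SRGAP3 (0.20) and TP53INP1 (0.22), and for TOB1 CEP85L (0.10) and XPC (0.10). GADD45A was closest to CMBL (0.12) and ZMAT3 (0.12), GADD45G to TIMP3 (0.20) and YPEL3 (0.26), PLK2 to APBB3 (0.09) and ZNF862 (0.09), and PLK3 to LIF (0.10) and TNFRSF10A (0.16). BTG3 was closest to TPRN (0.06) and SLC37A3 (0.06), TOB2 to SCYL3 (0.03) and ATG4B (0.03), and GADD45B to ARL2BP (0.06) and SCPEP1 (0.06), small values for genes that moved little. Among the 10 genes themselves the closest pairs that moved were BTG1 with PLK2 (0.24) and GADD45A with PLK3 (0.34), each pair of different families.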

How the data were processed

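Poly(A) RNA of 8 libraries was sequenced. Per the labels' protocols, libraries were strand-specific TruSeq mRNA. The submitters' processing notes name HTSeq 0.8.0 and TopHat2 2.1.1 with Bowtie2, without their roles, and the GRCh37 (hg19) build. Neither annotation nor strand handling is given in the sources used here. The authors deposited whole read counts per gene and RPKM values. For 16048 of 16048 genes checked, counts and deposited RPKM gave a whole gene length within 0.001 bases.

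Groups came from the sample titles, and columns were matched by name. The 10 genes, the lists and the rule for named genes were chosen with earlier results of these data known. The rule takes the 10 genes, up to 3 called genes with the smallest p from each of the lists of partners, substrates, arrest and immediate early genes, and for each of the 10 genes the 2 most similar genes.

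edgeR 4.0.16 in R 4.3.3 fitted 4 group means (filterByExpr, TMM, robust quasi-likelihood F test, two-sided, 4 residual degrees of freedom), with Benjamini-Hochberg adjustment over 15879 genes. Intervals are 95% intervals of the fit. For similar genes, log2 CPM used a prior count of 2. Both replicates of every group differed beyond counting error (chi-square per gene 2.38 to 9.19). Alternatives were DESeq2 1.42.0 size factors and its Wald test, upper-quartile factors, no low-count filter, a replicate block, fits of 4 libraries, limma-trend (limma 3.58.1) on log2(RPKM + 0.1) and log2(RPKM + 1), each library left out, and 3 libraries left out together. The main edgeR fit, and limma-trend on log2 CPM, were tested on simulated counts with known changes. The other alternatives were not.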

Additional observations from a re-analysis of the deposited data

Results flagged for a closer look

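For 7 of the 10 genes the Nutlin-3a response differed between genotypes when the difference itself was tested across all genes with edgeR. Over all genes tested 27.5% were called, 13.4% below 0 and 14.2% above. Each of the 7 genes is listed here for that reason. The KO response minus the WT response, on the log2 scale, was -2.40 for BTG2 (adjusted p = 1.6e-08), -1.96 for GADD45G (adjusted p = 1.1e-05), -1.17 for BTG1 (adjusted p = 5.0e-08), -0.67 for GADD45A (adjusted p = 2.7e-06), -0.43 for PLK2 (adjusted p = 4.8e-05) and -0.38 for TOB1 (adjusted p = 0.00830). For BTG3 it was 0.24 (adjusted p = 0.0151). Over the alternatives run, BTG2 ran from -2.54 to -2.20, GADD45G from -2.14 to -1.33, BTG1 from -1.27 to -1.05, GADD45A from -0.74 to -0.60 and PLK2 from -0.47 to -0.39, all called. TOB1 ran from -0.49 to -0.22 and was lost with limma-trend on log2(RPKM + 0.1) with no low-value filter (-0.35, adjusted p = 0.0749). BTG3 ran from 0.19 to 0.29 and was lost in 4 of the fits that left out 1 library. Groups of 2 libraries were too small for a search for single outlying libraries.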

How the results depend on the processing

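Of the 890 values of the 10 genes under the alternatives, 845 kept their direction and side of the threshold. Counts of genes called stayed within 1.5 times of the reported count, and the number of the 10 genes called with 1 library left out ran from 6 to 7 for the KO response, 8 to 10 for the WT response, 6 to 8 for KO against WT under DMSO, 7 to 8 under Nutlin-3a and 6 to 8 for the difference of responses. The 18 values that changed sign were called in neither fit. For the KO response of GADD45G they were 0.016 with upper-quartile factors, 0.0055 with only the 4 libraries compared, 0.014, 0.013 and 0.014 with limma-trend on log2(RPKM + 0.1), on log2(RPKM + 1) and with no low-value filter, and 0.11 with the 3 libraries left out together. With 1 library left out that response ran from -0.14 to 0.091, that of GADD45B from -0.090 to 0.11 and that of BTG1 from -0.0042 to 0.19. GADD45B was at -0.0021 with no low-count filter. For KO against WT under Nutlin-3a, TOB2 was at 0.037, 0.035 and 0.037 with the 3 limma-trend settings and BTG3 at -0.017 with the 3 libraries left out together, and the cause was not tested. On log2(RPKM + 0.1), 6209 genes were higher and 3747 lower in that comparison, against 5190 and 4822 by edgeR, and BTG3 was called (0.12, adjusted p = 0.0330).

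The replicate number as a block left 6, 10, 7, 8 and 7 of the 10 genes called in the order of comparisons above and changed no call among them. In the same order, the main fit called 38.7%, 58.6%, 61.5%, 63.1% and 27.5% of all genes tested. Deviations of same-numbered replicates correlated at -0.02 to 0.23 over genes, so the numbers were not taken as pairs. With 2 replicates a group, small changes such as the WT responses of TOB2 and GADD45B were called or not according to single libraries. Counts of scarce genes such as GADD45G carry more counting error.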
